A study of Rattus norvegicus with 8 samples.

Results

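Cigarette smoke was compared with normal air in the lung of male rats. The comparison takes 4 of the 8 samples of the series, those titled CS 1 and CS 2 and those titled NAÏVE 1 and NAÏVE 2. The naive rats breathed normal air. The smoke-exposed rats spent 12 weeks in a smoking chamber and, unlike the other 4 samples, which served to estimate the spread between replicates and to judge 1 naive array, are not labelled as given cells or vesicles. The labels give no strain, age or dose of smoke. RNA from 30 mg of whole lung was labelled with Cy3 from 200 ng of RNA and hybridised to 1 array per sample. Whole tissue mixes many cell types, so fewer cells of a type and less RNA per cell cannot be told apart in any value below.

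Inhaled smoke meets the airway lining first, which carries ciliated, club and basal cells, and then the thin alveolar wall of type 1 and type 2 cells, where type 2 cells secrete surfactant. The aryl hydrocarbon receptor and NRF2 are known to switch on genes that break down smoke constituents and buffer oxidants. NF-kB drives cytokine genes that call neutrophils and macrophages into the airspace, and proteases from those cells can break down the elastic fibres that let the lung recoil.

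The level of a probe was log2 of its signal relative to the 75th percentile of its own array (the percentile scale), and a difference is smoke minus naive in log2. The 75th percentile was 581 and 373 on the naive arrays and 3312 and 2725 on the smoke arrays, a ratio of 6.46 of the geometric means. For the E1A spike-in controls the corresponding ratio was 0.839. Scaling to those controls (the spike-in scale) adds 2.94 to every difference, so the median over all features moved from -0.55 to 2.39, and a fall of less than 2.94 on the percentile scale becomes a rise. Which scale reflects the RNA in the tissue was not tested. Every direction below is on the percentile scale, and the spike-in value stands beside each fall. Of all probes, 48.1% to 71.3% were well above background on these arrays, and replicates correlated across features at 0.962 in naive and 0.980 in smoke. Whether the replicates came from different rats is not in the labels, and a p-value therefore covers only the spread among these samples, which may be technical. Each group filled 1 column of the slide, so slide column and exposure cannot be told apart.

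The lung label held. Probes for Sftpc, Sftpb and Sftpd (surfactant), Scgb1a1 (club cells), Ager (type 1 cells), Foxj1 (ciliated cells), Napsa, Nkx2-1 and Cldn18 were well above background on all 4 arrays. Naive replicate 2 stood apart. Of the 14 measured genes of a liver list, 13 were higher on that array than on any of the other 7. Ttr, the thyroid hormone carrier, stood at -4.98 and 3.81 on the naive arrays, and at -7.70 and -5.91 in smoke. Among genes with a symbol, 44 lay more than 4 log2 higher on naive replicate 2 than on naive replicate 1, and 3 lay as far the other way. Between the smoke arrays the same counts were 5 and 0. The liver list had 7 falls with both naive arrays and 4 without naive replicate 2. Where this RNA came from was not tested.

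**Figure D1:**
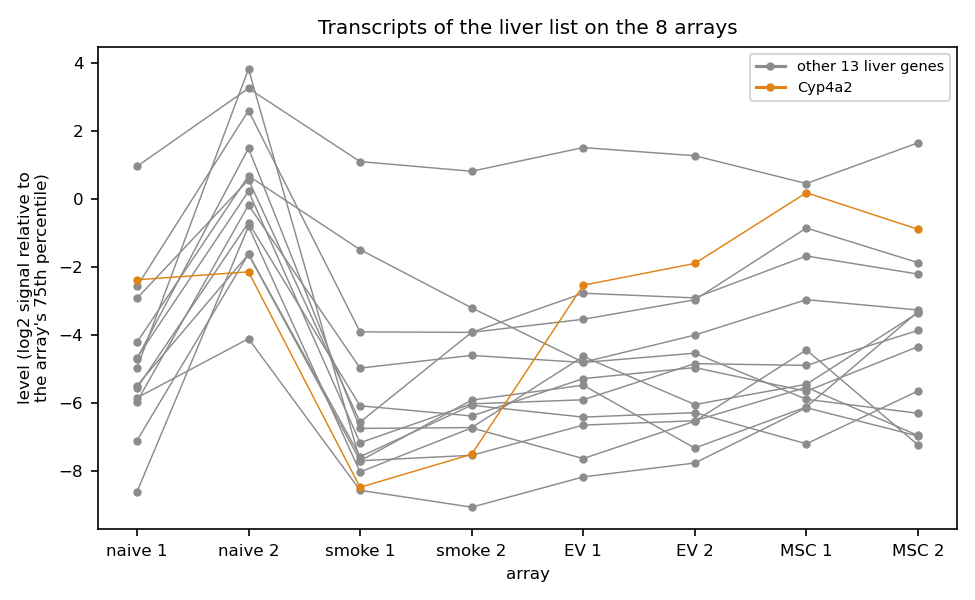
Level (vertical axis, log2 signal relative to the array's 75th percentile) of the 14 measured genes of the liver list on each of the 8 arrays (horizontal axis; EV and MSC are the treated groups). 1 line is 1 gene. The peak at naive 2 is shared by 13 genes; Cyp4a2, in orange, is instead lowest on both smoke arrays, at -8.47 and -7.50.

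Of 24312 features tested (1 probe per gene or transcript), 11238 passed limma's test at an adjusted p of 0.05 (46.2%): 3130 were higher in smoke (12.9%) and 8108 lower (33.3%). On the spike-in scale 20663 were higher (85%) and 113 lower (0.465%). Among the 12570 features with a gene symbol, 15.6% rose and 27.1% fell on the percentile scale. The lists below consist of such genes, so those shares are the background for their counts. Of the falls, 662 (2.72% of all features) also lay below naive on the spike-in scale, passing the test there or not, and 184 of them had a symbol (1.46% of features with one). The counts of rises and falls were 4414 and 4618 under quantile normalization, 4697 and 4762 under cyclic loess, 3800 and 6505 under median centring and 1985 and 15656 under normexp background correction. The signal of a probe bore on its difference: the median was -1.03 in the second of 10 equal bins of features by mean level, -0.19 in the seventh and -0.69 in the brightest. Leaving out 1 array reduced the calls to 8860 without naive replicate 1, 7264 without naive replicate 2, 3786 without smoke replicate 1 and 8343 without smoke replicate 2. With any 1 array left out, 3661 features kept both call and direction, 875 of them higher and 2786 lower. Such genes are called stable below, a word that covers arrays left out and not the normalization, and many of the examples are taken from them. Of 247 list genes that rose, 242 kept the call under quantile normalization, 245 under cyclic loess and 186 under normexp, where 34 turned. Of 401 that fell, 178, 164 and all 401 kept it.

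**Figure D2:**
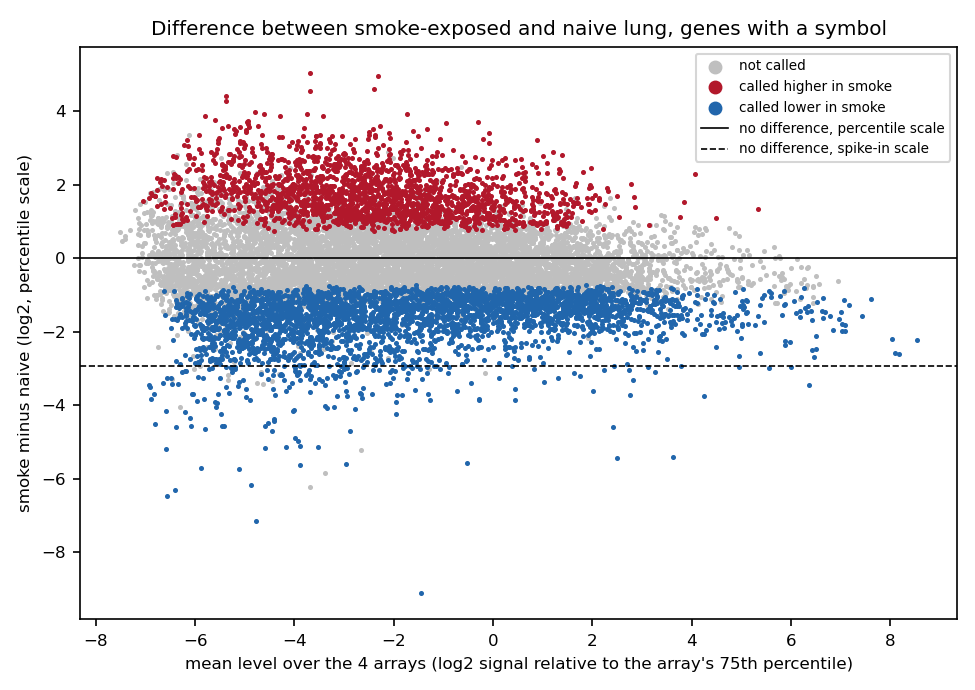
Smoke minus naive difference (vertical axis, log2, percentile scale) against the mean level over the 4 arrays (horizontal axis, log2 signal relative to the 75th percentile) for genes with a symbol. Each point is a gene, red where called higher and blue where called lower. The solid line marks no difference on the percentile scale and the dashed line, 2.94 lower, no difference on the spike-in scale; most blue points lie between the lines and are higher in smoke on the spike-in scale.

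The 49 gene lists were compared by their median difference relative to the median of all features, which shifting a whole array by a constant leaves unchanged. The median lay above that of all features under each of the 15 other settings for 30 lists and below it for 5 (liver, cartilage, testis, basal cell and sensory receptor genes). The other 14 lists changed side under at least 1 setting. On the spike-in scale 0 to 7 genes of each of 8 themes passed the test as lower. A fall in the paragraphs below is measured against the 75th percentile of the array, while the median of all features is itself -0.55. The ribosomal list, with 33 falls, lay only -0.03 from that median, and the motile cilia list, with 7 falls, lay 0.24 above it. On the percentile scale the highest medians belonged to the natural killer and cytotoxic list (1.78), the neutrophil list (1.47), epithelial junction and ion transport genes (1.22) and enzymes of superoxide and peroxide (1.18). Without smoke replicate 1 these became 1.07, 0.93, 0.77 and 0.73, and the elastic fibre list was highest at 1.17. Under normexp the neutrophil list stood at 0.63. Only 9 of the 14 natural killer genes and 11 of the 19 neutrophil genes were well above background on all 4 arrays. Part of each list therefore passed the filter through 1 group. Over all features, 1291 were well above background on both smoke arrays and neither naive array, and 99 the other way round.

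**Figure D3:**
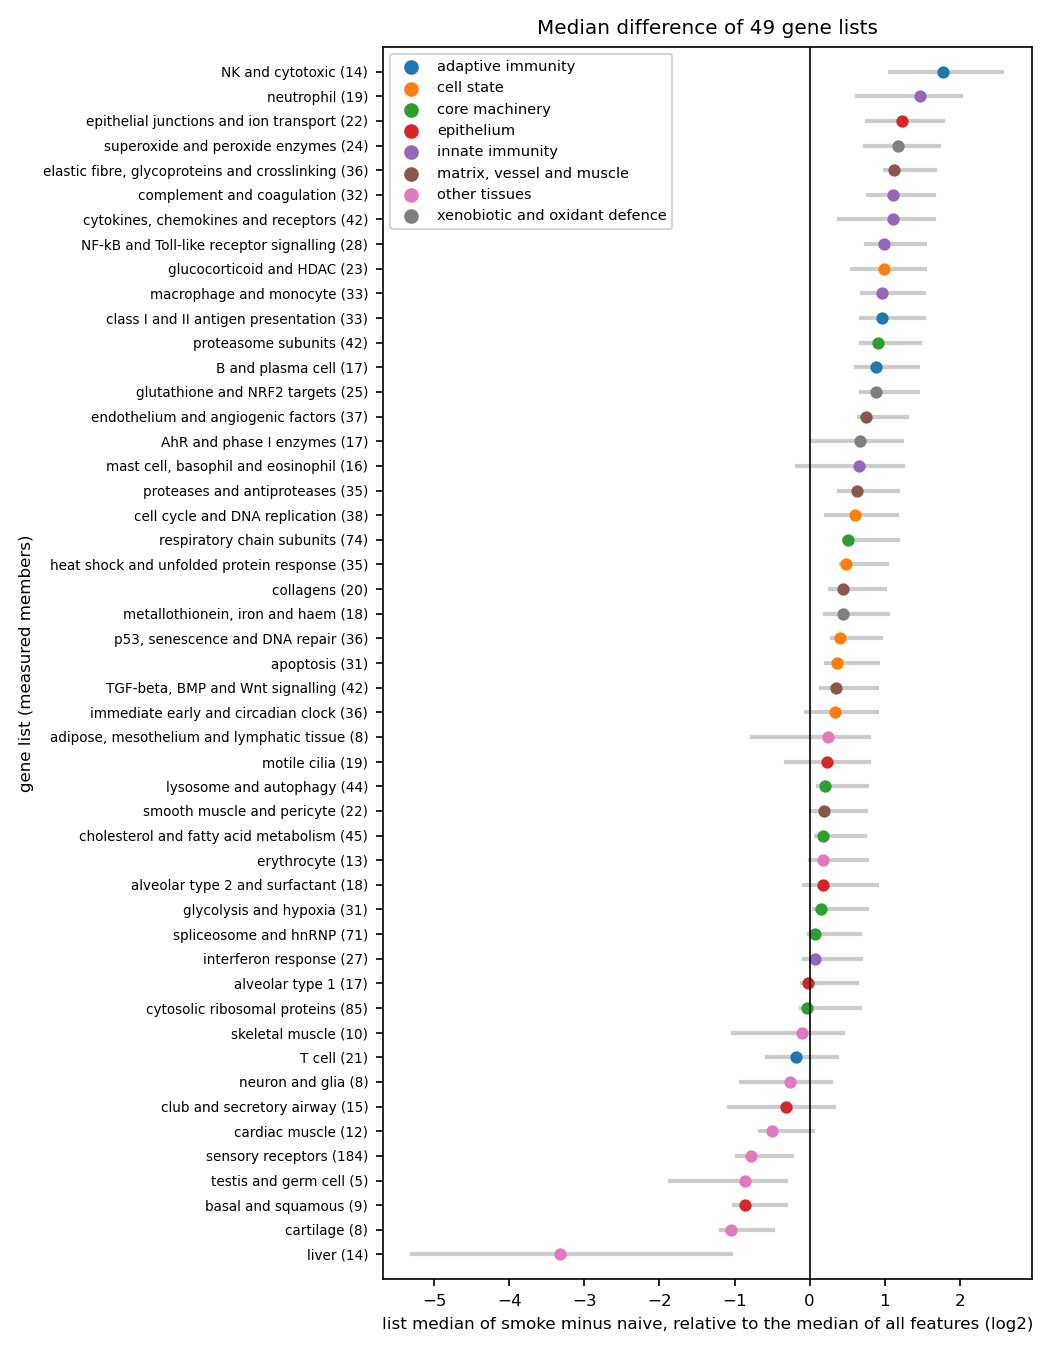
Median smoke minus naive difference of each of 49 gene lists (vertical axis, with the number of measured members) relative to the median of all features (horizontal axis, log2). Points give the value on the percentile scale, coloured by theme, and grey bars the range over the other settings, arrays left out included. The natural killer and cytotoxic list is highest at 1.78 and the liver list lowest at -3.33.

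Of 84 measured genes of xenobiotic and oxidant defence in 4 lists, 19 rose and 15 fell. Under quantile normalization 29 rose and 7 fell, under cyclic loess 33 and 3, and under normexp background correction 21 and 27. The rises included peroxide-removing enzymes of the secretory pathway and mitochondria. Gpx3, the extracellular glutathione peroxidase, stood at -3.13 and -3.06 in naive lung and at 1.07 and -0.20 in smoke, a difference of 3.53 (SE 0.43, adjusted p = 0.00221). Gpx7, an endoplasmic reticulum peroxidase, stood at -3.87 and -4.20 in naive lung and at -0.42 and -1.04 in smoke (3.30, SE 0.32, adjusted p = 0.0022). Prdx4, the peroxiredoxin of the endoplasmic reticulum, differed by 3.24 (adjusted p = 0.00231) and Prdx3, the mitochondrial one, by 1.71 (adjusted p = 0.00463). In none of these did the groups overlap, but 78.6% of all features showed no overlap either. By contrast Gpx2, the epithelial glutathione peroxidase, stood at 5.17 and 6.22 in naive lung and at 3.14 and 3.42 in smoke, a fall of 2.42 (adjusted p = 0.0039) that turned to 0.52 on the spike-in scale. Gpx4 and Sod2 also fell, by 1.56 and 0.92, and turned to 1.38 and 2.03 on the spike-in scale. The call of Gpx4 ended without smoke replicate 1 (adjusted p = 0.0591). The call of Sod2 ended with any 1 array left out (adjusted p from 0.0787 to 0.134). The difference on the other probe measured for Gpx4 was 1.89. Of the 24 genes in the superoxide and peroxide list, 9 rose and 6 fell, and 5 rose and 1 fell without smoke replicate 1.

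Of the 17 measured genes of the aryl hydrocarbon receptor list 2 rose and 2 fell (3 and 2 under quantile normalization, 4 and 0 under cyclic loess, 3 and 6 under normexp background correction). Ahrr, the repressor induced by the aryl hydrocarbon receptor, was not well above background in naive lung. A floored fold compares group means after raising levels in the group not well above background to at least their array's lowest well-above-background level. It is not a lower bound, since a probe not well above background can lie above that level. For Ahrr this fold was 1.5, brighter in smoke. The fitted difference of Ahrr, 1.14 (adjusted p = 0.0344), turned to -1.44 under normexp background correction. The call of Ahrr ended with any 1 array left out, where the difference ranged from 0.96 to 1.32. Cyp1a1, the classic target of that receptor, was not well above background in naive lung either. It stood at -8.60 and -6.99 there and at -4.67 and -4.21 in smoke, a floored fold of 3.68. Its fitted difference of 3.35 did not pass the test (adjusted p = 0.0627). This difference, the largest of the list, turned to -0.67 under normexp. Cyp1b1, another target, stood at -4.98 and -3.20 in naive lung and at -5.07 and -5.23 in smoke (-1.06, adjusted p = 0.163), turning to 1.88 on the spike-in scale. It was called lower under normexp (-1.74, adjusted p = 0.000155). Its groups did not overlap, but the naive arrays lay further apart than the group means, and its other probes ranged from -0.60 to 1.47. The NRF2 targets Hmox1 (haem oxygenase 1) and Gclc (glutathione synthesis) stood at -0.06 (adjusted p = 0.955) and 0.30 (adjusted p = 0.438), and Hmox1 turned to 2.89 on the spike-in scale, 0.16 under quantile normalization, 0.16 under median centring and 0.31 under cyclic loess. Fmo1, a monooxygenase of drug metabolism, rose by 2.47 (adjusted p = 0.00464). Of the 25 measured NRF2 and glutathione genes, 4 rose, among them the thioredoxin reductase gene Txnrd1 (2.11, adjusted p = 0.0073), whose other probe stood at -0.11 and whose call ended under normexp (0.66, adjusted p = 0.0740), and Pgd (1.78, adjusted p = 0.00848), and 5 fell. None of those 9 calls was stable. The calls of Txnrd1 and Pgd ended without smoke replicate 1 (adjusted p = 0.0625 and 0.0624). Without smoke replicate 1 the theme had 7 rises and 1 fall.

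The promoters of Ahrr and Cyp1b1 are shown because both carry the core letters of the aryl hydrocarbon receptor element, GCGTG. Only Ahrr passed the test on the percentile scale. They lie at chr1:30821969-30822268 and chr6:21094315-21094614, both on the plus strand, and run from 250 bases before to 50 after the start of the gene in RefSeq's GRCr8 build, and capitals mark each match on either strand. The letters occur in 29.7% of 33469 rat promoters of that length. A match describes the sequence and does not show a bound site.
Ahrr: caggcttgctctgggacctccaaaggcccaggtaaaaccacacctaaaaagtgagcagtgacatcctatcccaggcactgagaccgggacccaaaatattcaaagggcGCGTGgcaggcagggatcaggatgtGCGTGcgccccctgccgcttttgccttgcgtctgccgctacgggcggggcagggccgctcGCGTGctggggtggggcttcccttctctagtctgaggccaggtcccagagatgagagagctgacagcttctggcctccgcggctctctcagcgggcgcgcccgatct
Cyp1b1: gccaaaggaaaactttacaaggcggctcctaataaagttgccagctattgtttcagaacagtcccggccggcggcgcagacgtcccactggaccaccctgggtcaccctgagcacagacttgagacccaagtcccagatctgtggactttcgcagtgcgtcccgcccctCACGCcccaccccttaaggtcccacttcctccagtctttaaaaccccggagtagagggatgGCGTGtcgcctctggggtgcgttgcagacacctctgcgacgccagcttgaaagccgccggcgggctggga

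Of 100 measured epithelial genes in 6 lists, 11 rose and 28 fell, a balance that other scalings turned. These counts became 15 and 11 under quantile normalization, 15 and 8 under cyclic loess and 12 and 45 under normexp background correction. The falls on the percentile scale included markers of ciliated, basal and secretory airway cells. In the motile cilia list 0 of 19 genes rose and 7 fell by limma (0 rose and 7 fell at an unadjusted p under 0.05). The falls numbered 1 without naive replicate 2, 2 without smoke replicate 1, 2 without smoke replicate 2, 3 under quantile normalization and 1 under cyclic loess. The list median lay 0.24 above that of all features and changed side between settings, from -0.31 to 0.79. Rsph1, a radial spoke protein of cilia, stood at 2.14 and 2.87 in naive lung and at 0.58 and 0.44 in smoke, a fall of 2.00 (SE 0.34, adjusted p = 0.00423) that turned to 0.95 on the spike-in scale. Foxj1, the master regulator of motile cilia, fell by 1.95 (adjusted p = 0.0142), turning to 1.00 on the spike-in scale, and its call ended without naive replicate 2 (adjusted p = 0.0721) and without smoke replicate 1 (adjusted p = 0.0929). Its other probe stood at -1.02. In the basal and squamous list 0 of 9 rose and 5 fell (2 without smoke replicate 1). Krt5, the keratin of basal cells, fell by 1.80 (adjusted p = 0.00649) and the cornification gene Sprr1a by 2.08 (adjusted p = 0.0036), turning to 1.15 and 0.87 on the spike-in scale.

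Pigr, the receptor that carries IgA across the airway epithelium, stood at 7.16 and 6.94 in naive lung and at 3.68 and 4.44 in smoke. It fell by 2.99 (SE 0.37, adjusted p = 0.00221) and stayed below naive on the spike-in scale, at -0.05, without a call there, and its other probe stood at -0.34. Against these, the simple-epithelium keratins Krt19 and Krt8 rose by 1.81 (adjusted p = 0.00962) and 2.59 (adjusted p = 0.0189), though neither held without smoke replicate 1 (adjusted p = 0.0797 and 0.130) and Krt8 also not without naive replicate 1 (adjusted p = 0.0856). Type 2 cell genes moved both ways. The surfactant gene Sftpc, the brightest feature on all 4 arrays, fell by 2.22 (adjusted p = 0.0037), a stable call. It turned to 0.72 on the spike-in scale and stood at -0.57 under cyclic loess. Under quantile normalization, which gives the brightest feature of each array 1 shared value, it stood at 0. Surfactant genes Sftpb and Sftpd fell by 1.14 and 1.65 (adjusted p = 0.0315 and 0.0153), turning to 1.81 and 1.30 on the spike-in scale and to 0.61 and 0.03 under quantile normalization, while Sftpb also turned to 0.23 under cyclic loess. The surfactant-processing protease gene Ctsh stood at 0.25 and 0.06 in naive lung and at 2.88 and 2.17 in smoke and rose by 2.37 (SE 0.36, adjusted p = 0.00305). The calls of Sftpb and Sftpd ended without naive replicate 2 (adjusted p = 0.122 and 0.0768), and that of Sftpb with any of the 4 arrays left out.

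Of genes that hold epithelial cells together or move ions, 6 of 22 rose and 4 fell, with a list median of 1.22 above all features. The sodium channel subunits Scnn1a (1.68, adjusted p = 0.00858) and Scnn1b (2.37, adjusted p = 0.00906), which set the depth of airway surface liquid, rose together with the tight junction scaffold Tjp1 (1.27, adjusted p = 0.019). The tight junction gene Ocln fell by 1.38 (adjusted p = 0.0117) and turned to 1.56 on the spike-in scale. No call of this list was stable, and 0 genes rose or fell without smoke replicate 1. Under normexp the call of Scnn1b ended (0.58, adjusted p = 0.130), and its other probe stood at 4.01 on the percentile scale. The calls of Tjp1 and Ocln ended without naive replicate 2 (adjusted p = 0.0875 and 0.0606). The calls of Scnn1a, Scnn1b, Tjp1 and Ocln ended without smoke replicate 1 (adjusted p = 0.0519, 0.0741, 0.0964 and 0.0855). The call of Tjp1 ended without smoke replicate 2 (adjusted p = 0.0699). On other probes the difference of Ocln lay between 0.06 and 2.73. Over the 6 epithelial lists 1 gene rose and 6 fell without smoke replicate 1.

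Of 196 measured genes of innate immunity, 50 rose and 25 fell (42 and 32 of 157 well above background on all 4 arrays). Under quantile normalization 63 rose and 19 fell, under cyclic loess 65 and 13, and under normexp background correction 48 and 72. In the list of NF-kB and Toll-like receptor signalling 10 of 28 rose and 3 fell (2 and 1 without smoke replicate 1). Casp1, the protease that matures interleukin-1, stood at -3.30 and -3.47 in naive lung and at -0.42 and -1.14 in smoke (2.61, SE 0.44, adjusted p = 0.00387). The groups were apart by more than the spread within either. Pycard, the adaptor that assembles the Casp1 complex, rose by 2.12 (adjusted p = 0.00815), while Nlrp3, a sensor of that complex, fell by 1.18 (adjusted p = 0.0303) and turned to 1.76 on the spike-in scale. Tlr5, the flagellin receptor, stood at -3.19 and -3.02 in naive lung and at -6.83 and -5.68 in smoke. It fell by 3.15 (adjusted p = 0.00254) and lay at -0.21 on the spike-in scale, without a call there (adjusted p = 0.710). The call of Pycard ended without smoke replicate 1 (adjusted p = 0.0684). The call of Nlrp3 ended with any 1 array left out (adjusted p from 0.0578 to 0.137). Differences on other probes of Nlrp3 lay between -1.71 and 0.19. Of all 10 measured Toll-like receptor genes, counted after their values were seen, 1 rose (Tlr1, 2.11) and 2 fell (Tlr5 and Tlr12). Tlr1 stood at -7.27 and -6.20 in naive lung. The lowest levels well above background on those arrays were -7.02 and -5.62. Tlr1 therefore passed the filter through smoke alone.

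Of the cytokine list 9 of 42 rose and 6 fell (9 and 21 under normexp background correction, 2 and 4 without smoke replicate 1). Among 28 secreted ligands 7 rose and 2 fell, and among 14 receptors 2 rose and 4 fell. Ligands and receptors were not tested against each other. Cxcl1, a neutrophil attractant, stood at -2.58 and -2.69 in naive lung and at 0.52 and -0.21 in smoke (2.79, SE 0.33, adjusted p = 0.0022). Csf2 (GM-CSF) rose by 1.92 (adjusted p = 0.0232), but turned to -0.33 under normexp and lost its call without naive replicate 2 (adjusted p = 0.125), smoke replicate 1 (adjusted p = 0.0875) or smoke replicate 2 (adjusted p = 0.0923). Ccl22, which attracts regulatory T cells, stood at 2.80 and 3.58 in naive lung and at -0.18 and 0.31 in smoke. This fall of 3.13 (adjusted p = 0.00231) lay at -0.19 on the spike-in scale, without a call there (adjusted p = 0.721). The 2 other probes of Ccl22 stood at -0.47 and -0.45. The fractalkine receptor Cx3cr1 of monocytes fell by 2.02 (adjusted p = 0.00263), turning to 0.92 on the spike-in scale. Il18 rose by 1.12 (adjusted p = 0.0424), a call lost without naive replicate 2 (adjusted p = 0.200), smoke replicate 1 (adjusted p = 0.140) or smoke replicate 2 (adjusted p = 0.139). Il6 did not pass the filter on dim probes.

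**Figure D4:**
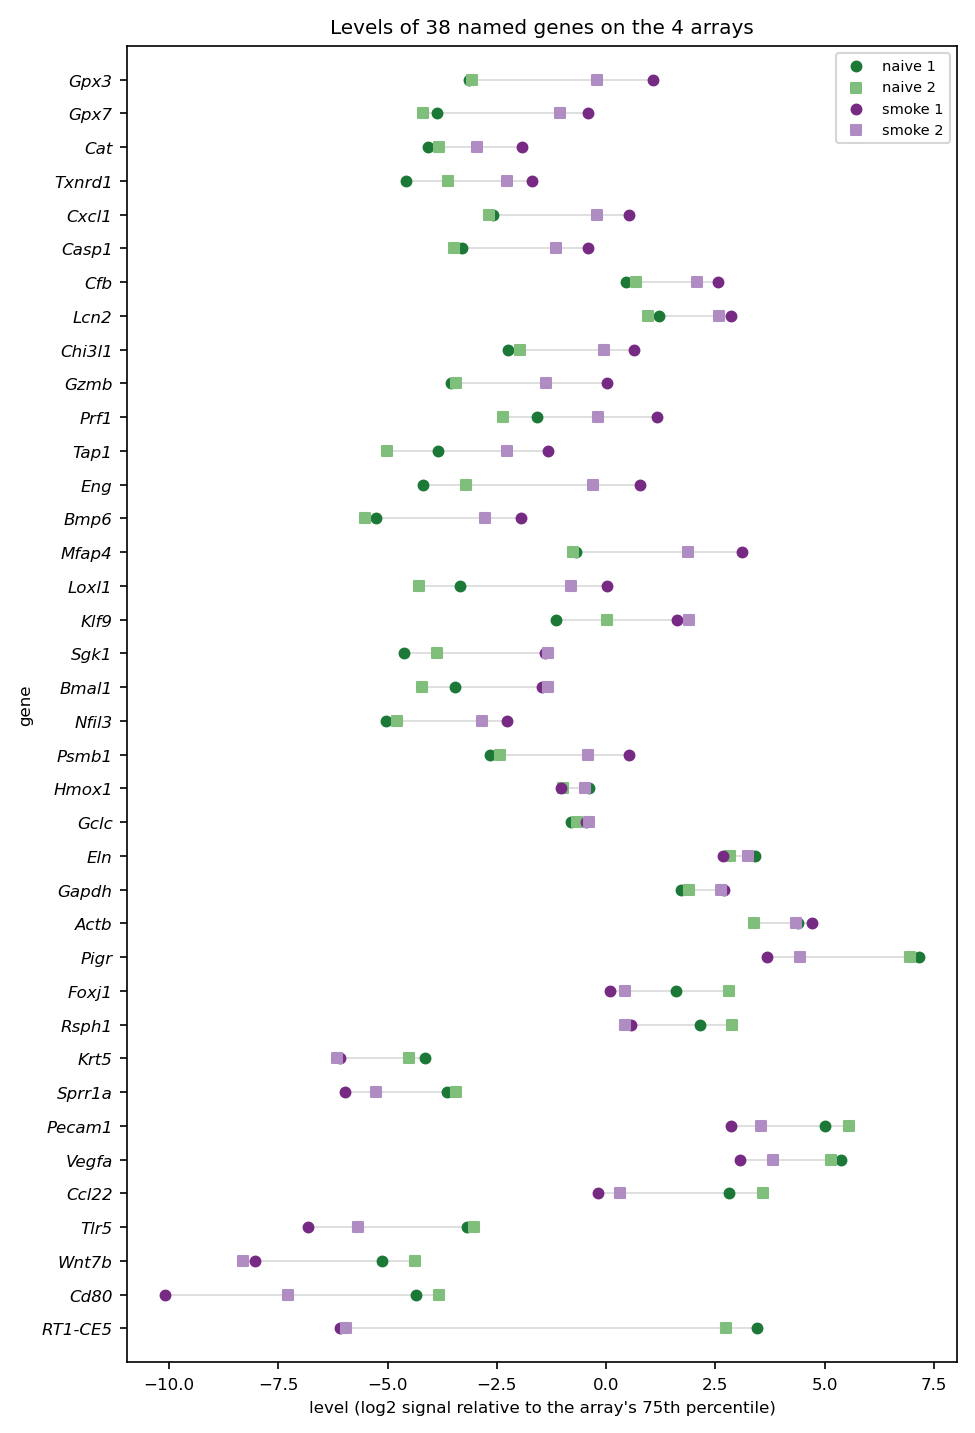
Levels (horizontal axis, log2 signal relative to the array's 75th percentile) of 38 genes (vertical axis) on the 2 naive arrays (dark and light green) and the 2 smoke arrays (dark and light purple). Gpx3 at the top is higher on both smoke arrays, the 4 points of Hmox1 and of Gclc lie close together, and the genes from Pigr down are lower in smoke. Of these lower genes only Pigr, Ccl22, Tlr5, Wnt7b, Cd80 and RT1-CE5 stay lower on the spike-in scale. Only Cd80 and RT1-CE5 pass the test there.

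Of the 23 named immune genes that rose, 21 had a RefSeq promoter, and 3 of those 21 (14.3%) held the NF-kB motif on either strand: Cxcl1, Lcn2 and Tap1. The motif occurs in 7.51% of the 33469 promoters. The 3 promoters, at chr14:17479272-17479571, chr3:36081731-36082030 and chr20:4668494-4668793 of GRCr8 and all on the minus strand, are shown with the match in capitals, as they are the genes of this set where the letters are present; the choice followed their values.
Cxcl1: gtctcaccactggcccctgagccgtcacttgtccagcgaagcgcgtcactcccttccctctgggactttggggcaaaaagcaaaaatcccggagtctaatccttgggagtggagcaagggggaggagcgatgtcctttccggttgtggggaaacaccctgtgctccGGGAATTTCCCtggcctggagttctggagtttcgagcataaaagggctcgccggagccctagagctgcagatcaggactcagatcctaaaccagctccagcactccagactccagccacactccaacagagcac
Lcn2: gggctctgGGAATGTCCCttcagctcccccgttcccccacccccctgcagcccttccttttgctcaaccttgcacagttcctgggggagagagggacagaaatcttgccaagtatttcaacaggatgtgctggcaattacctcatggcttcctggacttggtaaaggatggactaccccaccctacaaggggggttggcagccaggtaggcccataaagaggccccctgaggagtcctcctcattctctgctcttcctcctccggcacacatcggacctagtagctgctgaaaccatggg
Tap1: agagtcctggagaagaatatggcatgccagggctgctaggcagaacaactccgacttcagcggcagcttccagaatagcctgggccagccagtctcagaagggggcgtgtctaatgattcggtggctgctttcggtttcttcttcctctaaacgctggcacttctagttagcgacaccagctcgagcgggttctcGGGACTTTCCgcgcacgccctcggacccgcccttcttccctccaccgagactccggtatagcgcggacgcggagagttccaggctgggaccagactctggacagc

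Interferon-induced genes moved both ways. Of 27 measured genes 4 rose and 9 fell (6 and 3 under cyclic loess), and the list median lay 0.07 from that of all features. The oligoadenylate synthetases, which sense viral RNA, split: Oas1a stood at -3.34 and -2.97 in naive lung and at -0.35 and -1.42 in smoke and rose by 2.27 (adjusted p = 0.0048), whereas Oas2 fell by 1.93 (adjusted p = 0.00289) and Oas1b by 1.66 (adjusted p = 0.00489), turning to 1.02 and 1.28 on the spike-in scale. These genes are paralogs, and cross-hybridisation between them was not tested. The other probe of Oas1a stood at 3.0. Ifi27 rose by 1.98 (adjusted p = 0.00617).

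Complement and clotting genes rose in 9 of 32 cases and 1 fell (2 and 0 without smoke replicate 1). C1qc, a chain of the initiator of the classical pathway, stood at -4.96 and -4.85 in naive lung and at -1.08 and -2.08 in smoke (3.33, SE 0.59, adjusted p = 0.00454), with 1 of the 2 naive arrays well above background. Cfb, the protease of the alternative pathway, stood at 0.46 and 0.69 in naive lung and at 2.56 and 2.08 in smoke (1.75, SE 0.32, adjusted p = 0.0049). Both genes were higher on each smoke array than on either naive array, and 78.6% of all features showed no overlap of the groups. The only fall, of the complement inhibitor Cd55 by 1.03 (adjusted p = 0.0215), turned to 1.91 on the spike-in scale. The call of Cd55 ended without naive replicate 2 (adjusted p = 0.0867) or smoke replicate 1 (adjusted p = 0.0697) or smoke replicate 2 (adjusted p = 0.11). On other probes the difference of Cd55 lay between 0.36 and 1.38.

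Among myeloid cell genes, the macrophage list had 8 rises and 1 fall in 33 (9 and 10 under normexp background correction), and 6 of the rises were stable. Chit1 and Chi3l1, chitinase-family proteins secreted by activated macrophages, rose by 2.47 (adjusted p = 0.00223) and 2.39 (adjusted p = 0.00284). Chi3l1 stood at -2.23 and -1.96 in naive lung and at 0.63 and -0.05 in smoke. The mannose receptor Mrc1 rose by 2.23 (adjusted p = 0.00379) and Adgre1 (F4/80) by 2.67 (adjusted p = 0.00707), but these turned to -0.15 and -0.03 under normexp. Nos2, the inducible nitric oxide synthase, fell by 2.04 (adjusted p = 0.00496) and turned to 0.90 on the spike-in scale. The scavenger receptor Marco of alveolar macrophages stood at -0.82 (adjusted p = 0.351), turning to 2.12 on the spike-in scale. Under normexp Marco was called lower (-2.10, adjusted p = 1.5e-05). Spp1 stood at 0.01 (adjusted p = 0.989), turning to -0.62 under normexp and to -0.64 without naive replicate 2.

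In the neutrophil list 7 of 19 rose and 2 fell (5 and 7 under normexp background correction, 1 and 1 without smoke replicate 1). Csf3r, the receptor for the neutrophil growth factor, rose by 2.35 (adjusted p = 0.00424), with 1 of 2 naive arrays well above background and a value of -0.03 under normexp. Lcn2, the iron-binding lipocalin of neutrophil granules and airway epithelium, stood at 1.21 and 0.95 in naive lung and at 2.86 and 2.57 in smoke (1.63, adjusted p = 0.00682). Its call ended without smoke replicate 1 (adjusted p = 0.0591). Padi4 fell by 1.35 (adjusted p = 0.00845), turning to 1.59 on the spike-in scale. The call of Padi4 ended without smoke replicate 2 (adjusted p = 0.0515). The mast cell protease gene Cpa3 fell by 2.24 (adjusted p = 0.00836), turning to 0.71 on the spike-in scale, while another mast cell protease gene, Mcpt9, rose by 2.28 (adjusted p = 0.0361), a call lost without naive replicate 1 (adjusted p = 0.118), naive replicate 2 (adjusted p = 0.101) or smoke replicate 1 (adjusted p = 0.223). Over all innate lists, 15 genes rose and 11 fell without smoke replicate 1.

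In the T cell list 2 of 21 genes rose and 9 fell (4 and 4 under quantile normalization, 0 and 5 without smoke replicate 1). Cd247, the zeta chain of the T cell receptor complex, stood at 1.41 and 1.75 in naive lung and at -0.97 and -1.12 in smoke, a fall of 2.63 (adjusted p = 0.0022). Cd3e fell by 2.44 (adjusted p = 0.00317), and these turned to 0.31 and 0.50 on the spike-in scale. In the natural killer and cytotoxic list 5 of 14 rose and 0 fell by limma, and no member fell at an unadjusted p under 0.05. Of these rises, Cst7 and Klrk1 were not well above background on either naive array and passed the filter through smoke alone. The filter therefore set this balance in part. The same holds for the T cell rises, Cd8a and Gata3. The rises numbered 2 without naive replicate 2 or smoke replicate 1. Gzmb, a granule protease, stood at -3.56 and -3.44 in naive lung and at 0.03 and -1.37 in smoke (2.83, SE 0.50, adjusted p = 0.00469), with its other probe at 1.94. Prf1, the pore-forming perforin, stood at -1.57 and -2.35 in naive lung and at 1.16 and -0.18 in smoke (2.45, SE 0.49, adjusted p = 0.00675). In both genes smoke replicate 1 was the highest of the 4 arrays. The cytotoxic T cell marker Cd8a was not well above background on the naive arrays. It was 9.92-fold brighter on the smoke arrays on the percentile scale (adjusted p = 0.015), which is the fitted difference and no bound. Its log2 difference of 3.31 became 0.42 under normexp (adjusted p = 0.388) and 2.26 without smoke replicate 1, and the call was lost without naive replicate 1 (adjusted p = 0.0709) or smoke replicate 1 (adjusted p = 0.103). The T cell and cytotoxic lists were not tested against each other.

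Antigen presentation genes were counted by class, and the classes were not tested against each other. Of 8 genes for class II molecules and their chaperones 6 rose and 0 fell by limma, with a median difference of 1.56. RT1-Db1, a class II beta chain, stood at 1.33 and 1.06 in naive lung and at 3.01 and 2.81 in smoke (1.72, adjusted p = 0.02), and the invariant chain Cd74 at 3.61 and 2.54 in naive lung and at 4.65 and 4.58 in smoke (1.54, adjusted p = 0.0312). None of these 6 rises was stable: 0 were called without naive replicate 2 or without smoke replicate 1, and 2 without smoke replicate 2. The call of Cd74 ended without naive replicate 2 (adjusted p = 0.162), smoke replicate 1 (adjusted p = 0.134) or smoke replicate 2 (adjusted p = 0.0912), and that of RT1-Db1 with any 1 array left out (adjusted p from 0.0522 to 0.109). Of 9 class I genes 2 rose and 6 fell, with a median of -1.49, and 4 of the falls were called with any 1 array left out. RT1-CE5 stood at 3.44 and 2.75 in naive lung and at -6.09 and -5.94 in smoke, a difference of -9.11 (SE 0.31, adjusted p = 8.5e-05). It was the largest change of the list and remained called on the spike-in scale (-6.17, adjusted p = 4.2e-06). RT1-A2 stood at 7.03 and 7.09 in naive lung and at 4.65 and 4.77 in smoke, a fall of 2.35 (adjusted p = 0.0022) that turned to 0.59 on the spike-in scale, while RT1-S3 rose by 1.48 (adjusted p = 0.0157), a call lost without naive replicate 2 (adjusted p = 0.0834) or smoke replicate 1 (adjusted p = 0.119), with its other probe at 0.53. RT1 class I genes are near-identical and differ between rat strains, so signal could not be assigned to 1 copy. B2m, the shared light chain of class I, stood at -0.88 (adjusted p = 0.0724), turning to 2.06 on the spike-in scale, 0.32 under quantile normalization and 0.39 under cyclic loess. It was called lower under normexp (-0.71, adjusted p = 0.0489) and with a trended prior (adjusted p = 0.0417). Tap1, the peptide transporter of this pathway, rose by 2.62 (adjusted p = 0.00434), though another probe stood at 0.62, and was the stable rise among the 11 of the antigen presentation list. The costimulator Cd80 was not well above background in smoke and was dimmer there by a floored fold of 13.0 on the percentile scale. Its fitted difference of -4.60 passed the test (adjusted p = 0.00433). On the spike-in scale the difference of Cd80 was -1.66 (adjusted p = 0.0226). Over 4 adaptive lists 19 of 85 genes rose and 20 fell (13 and 19 of 65 well above background on all 4 arrays). These counts became 22 and 11 under quantile normalization, 23 and 11 under cyclic loess and 16 and 41 under normexp background correction. Without naive replicate 2 these counts were 4 and 14, and without smoke replicate 1 they were 3 and 12.

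Of 20 collagen genes 0 rose by limma and 5 fell (3 and 2 under cyclic loess), with 1 rising and 6 falling at an unadjusted p under 0.05, while of 36 genes for elastic fibres, glycoproteins and crosslinking 14 rose and 1 fell (8 and 1 without smoke replicate 1). Mfap4, an elastic fibre glycoprotein, stood at -0.68 and -0.75 in naive lung and at 3.11 and 1.87 in smoke (3.21, SE 0.41, adjusted p = 0.00231). Loxl1, the enzyme that crosslinks elastin, stood at -3.34 and -4.29 in naive lung and at 0.02 and -0.81 in smoke (3.42, SE 0.50, adjusted p = 0.00284). The groups were apart in both, as in 78.6% of all features. Fbln5, which tethers elastin to cells, rose by 2.56 (adjusted p = 0.00606). Sparc, a collagen-binding glycoprotein, rose by 2.30 (adjusted p = 0.00436) and Ltbp4, which binds latent TGF-beta, by 1.89 (adjusted p = 0.00489). Under normexp the call of Fbln5 ended (0.74, adjusted p = 0.0818), as did the rises of Loxl2, Mfap2 and Tnc. Loxl3 and Lum, also among the rises of this list, were called lower there (-1.12 and -1.24, adjusted p = 0.0085 and 0.0026). Elastin itself, Eln, stood at 3.41 and 2.83 in naive lung and at 2.67 and 3.26 in smoke. Its groups overlapped and its difference of -0.15 (adjusted p = 0.733) turned to 2.79 on the spike-in scale, 0.43 under quantile normalization, 0.06 under median centring and 0.64 under cyclic loess.

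Col1a1, the main fibrillar collagen, fell by 1.2 (adjusted p = 0.0489), turning to 1.74 on the spike-in scale, and its call ended with any 1 array left out (adjusted p from 0.0502 to 0.271), while its other probe stood at 0.87. Col3a1 stood at -0.11 (adjusted p = 0.764), turning to 2.83 on the spike-in scale, 0.46 under quantile normalization, 0.11 under median centring, 0.64 under cyclic loess and 0.050 under normexp. The stable falls among collagens were the cartilage types Col2a1 (by 1.74, adjusted p = 0.00427) and Col9a2 (by 2.56, adjusted p = 0.00307), which turned to 1.21 and 0.39 on the spike-in scale. These 2 genes belong to the cartilage list, in which 6 of 8 fell. The part of airway cartilage in the lung pieces was not tested. Of 35 proteases and inhibitors 7 rose and 5 fell (9 and 17 under normexp background correction). The cathepsins Ctsz and Ctsl rose by 1.89 (adjusted p = 0.00622) and 1.60 (adjusted p = 0.00726), the latter losing its call without smoke replicate 1 (adjusted p = 0.0589), and Ctsb fell by 0.99 (adjusted p = 0.0199), turning to 1.95 on the spike-in scale and 0.16 under cyclic loess. The call of Ctsb ended with any 1 array left out (adjusted p from 0.0533 to 0.129). Timp1, an inhibitor of matrix metalloproteinases, rose by 1.34 (adjusted p = 0.0259), a call lost without naive replicate 2 (adjusted p = 0.130), smoke replicate 1 (adjusted p = 0.142) or smoke replicate 2 (adjusted p = 0.0622).

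Of 42 genes of the TGF-beta, BMP and Wnt list 9 rose and 8 fell (7 and 21 under normexp background correction). Eng (endoglin), a TGF-beta co-receptor of endothelium, stood at -4.19 and -3.20 in naive lung and at 0.79 and -0.31 in smoke (3.93, SE 0.46, adjusted p = 0.0022). Bmp6, a secreted ligand, stood at -5.27 and -5.51 in naive lung and at -1.96 and -2.76 in smoke (3.03, SE 0.35, adjusted p = 0.0022), with 1 of 2 naive arrays well above background. Tgfb1 rose by 2.64 (adjusted p = 0.0176), a call lost under normexp (0.47, adjusted p = 0.135) and without naive replicate 2 (adjusted p = 0.0989) or smoke replicate 1 (adjusted p = 0.103). The transducers Smad1, Smad5 and Smad9 fell by 1.25, 1.15 and 2.14 (adjusted p from 0.00914 to 0.0455) and turned to 1.70, 1.80 and 0.80 on the spike-in scale, and none of the 3 calls was stable. The call of Smad1 ended without naive replicate 1 (adjusted p = 0.214). The call of Smad5 ended without naive replicate 2 (adjusted p = 0.0538). The calls of Smad1, Smad5 and Smad9 ended without smoke replicate 1 (adjusted p = 0.232, 0.116 and 0.0715). The call of Smad1 ended without smoke replicate 2 (adjusted p = 0.0678). Wnt7b, a ligand of alveolar epithelium, was not well above background in smoke and was dimmer by a floored fold of 6.91. Its fitted difference passed the test (adjusted p = 0.00224) and lay at -0.48 on the spike-in scale, without a call there (adjusted p = 0.386).

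Endothelial genes rose in 9 and fell in 6 of 37 cases. The receptor Tie1 rose by 2.20 (adjusted p = 0.00316), the adrenomedullin receptor partner Ramp2 by 2.88 (adjusted p = 0.00419) and the sialomucin Emcn by 2.55 (adjusted p = 0.00422). Pecam1, the junctional adhesion molecule, stood at 5.0 and 5.55 in naive lung and at 2.86 and 3.55 in smoke, a fall of 2.07 (adjusted p = 0.00617) that turned to 0.87 on the spike-in scale. Vegfa, the endothelial growth factor, stood at 5.38 and 5.14 in naive lung and at 3.07 and 3.81 in smoke, a fall of 1.82 (adjusted p = 0.0288) that turned to 1.12 on the spike-in scale. The calls of Pecam1 and Vegfa ended without smoke replicate 1 (adjusted p = 0.0556 and 0.169), and that of Vegfa also without naive replicate 1 (adjusted p = 0.103) or naive replicate 2 (adjusted p = 0.0805). The other probes of Vegfa ranged from -2.49 to -0.79. Of the endothelial calls, 6 of 9 rises and 0 of 6 falls were stable. Of 22 smooth muscle and pericyte genes 4 rose and 3 fell. Myl9, the myosin light chain of smooth muscle, rose by 2.76 (adjusted p = 0.00442) and the pericyte gene Rgs5 by 1.88 (adjusted p = 0.0031). Acta2, smooth muscle actin, stood at -0.97 (adjusted p = 0.0559), turning to 1.97 on the spike-in scale. It was called lower under normexp (-0.93, adjusted p = 0.00989). The same held with a fit to the 4 arrays alone, a trended prior and the stricter filter (adjusted p from 0.0343 to 0.0386). Over the matrix, vessel and muscle lists 42 of 191 genes rose and 28 fell, and 18 rose and 5 fell without smoke replicate 1. Under quantile normalization 57 rose and 15 fell, under cyclic loess 54 and 11, and under normexp background correction 42 and 72.

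Of 38 genes of cell division 2 rose and 10 fell (5 and 4 under quantile normalization, 4 and 3 under cyclic loess). The helicase subunit gene Mcm4 fell by 1.72 (adjusted p = 0.00428), turning to 1.23 on the spike-in scale, and was the stable call of this list. Differences on other probes of Mcm4 lay between -1.79 and 0.03. Pcna, the replication clamp, rose by 1.03 (adjusted p = 0.0181), a call lost without naive replicate 1 (adjusted p = 0.0579), naive replicate 2 (adjusted p = 0.0559) or smoke replicate 1 (adjusted p = 0.128). Of 36 genes of p53, senescence and repair 9 rose and 8 fell (7 and 17 under normexp background correction). Rb1, the brake on entry into S phase, rose by 3.36 (SE 0.37, adjusted p = 0.0022), from -4.46 and -3.89 in naive lung to -0.47 and -1.15 in smoke. Lmnb1, a nuclear lamin, stood at 4.19 and 3.43 in naive lung and at -0.33 and 0.75 in smoke. This fall of 3.60 (adjusted p = 0.00249) lay at -0.66 on the spike-in scale, without a call there (adjusted p = 0.293). Of the cyclin-kinase inhibitors, Cdkn2a fell by 1.72 (adjusted p = 0.00353), turning to 1.22 on the spike-in scale, and Cdkn1a stood at 0.17 (adjusted p = 0.731), turning to -0.08 without naive replicate 1 and -0.31 without smoke replicate 2.

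Of 31 apoptosis genes 4 rose and 5 fell (4 and 4 under quantile normalization, 6 and 4 under cyclic loess). The initiator caspase gene Casp8 rose by 2.51 (adjusted p = 0.00459) and the apoptosome gene Apaf1 fell by 2.26 (adjusted p = 0.0028), turning to 0.69 on the spike-in scale. The survival gene Bcl2l1 fell by 2.96 (adjusted p = 0.00704) and lay at -0.02 on the spike-in scale, a call lost without smoke replicate 1 (adjusted p = 0.0595). Of 35 genes for chaperones and the unfolded protein response 7 rose and 4 fell, none of them a stable call. The endoplasmic reticulum disulphide isomerases Pdia6 and Pdia3 rose by 1.92 (adjusted p = 0.00674) and 1.54 (adjusted p = 0.00861), with an adjusted p of 0.0591 and 0.0742 without smoke replicate 1, and Pdia4 of the same family fell by 1.27 (adjusted p = 0.0165), turning to 1.68 on the spike-in scale. The call of Pdia4 ended with any 1 array left out (adjusted p from 0.0509 to 0.104). On other probes the difference was -0.32 for Apaf1 and lay for Bcl2l1 between -2.13 and -1.11.

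Of 36 immediate early and clock genes 5 rose and 7 fell, among them 3 and 3 of the 14 clock genes. Of 23 glucocorticoid and histone deacetylase genes 6 rose and 4 fell. Among all features with a symbol 15.6% rose and 27.1% fell. The rises of Bmal1, Nfil3, Sgk1 and Klf9 were stable. Bmal1, the activator of the circadian loop, stood at -3.47 and -4.20 in naive lung and at -1.46 and -1.34 in smoke (2.44, SE 0.38, adjusted p = 0.00318). Nfil3, a repressor in the output of that loop, stood at -5.04 and -4.79 in naive lung and at -2.26 and -2.84 in smoke (2.37, SE 0.33, adjusted p = 0.00258), but its call ended under normexp (0.36, adjusted p = 0.251). The repressors Cry2, Per3 and Nr1d2 fell by 1.30, 1.08 and 1.64 (adjusted p from 0.0132 to 0.0482), turning to 1.64, 1.86 and 1.30 on the spike-in scale, and no call among these was stable; the other probe of Nr1d2 stood at -0.94. The calls of Per3 and Nr1d2 ended without naive replicate 2 (adjusted p = 0.153 and 0.203). The calls of Cry2, Per3 and Nr1d2 ended without smoke replicate 1 (adjusted p = 0.0797, 0.107 and 0.119). The calls of Cry2, Per3 and Nr1d2 ended without smoke replicate 2 (adjusted p = 0.0524, 0.127 and 0.176). The labels give no time of day of tissue collection, and its part in these values was not tested. Sgk1, a kinase gene induced by glucocorticoids, stood at -4.62 and -3.88 in naive lung and at -1.39 and -1.34 in smoke (2.88, SE 0.35, adjusted p = 0.00221). Klf9, another gene induced by glucocorticoids, stood at -1.16 and 0.02 in naive lung and at 1.62 and 1.89 in smoke (2.32, SE 0.40, adjusted p = 0.00436). Tsc22d3 (GILZ), which glucocorticoids also induce, fell by 1.17 (adjusted p = 0.0425) and turned to 1.78 on the spike-in scale. Histone deacetylases, which glucocorticoid receptors recruit to silence cytokine genes, split: Hdac3 and Hdac5 rose by 1.54 and 1.13 (adjusted p = 0.0114 and 0.0155), and Hdac1 and Hdac4 fell by 1.53 and 1.80 (adjusted p = 0.00765 and 0.00417), turning to 1.42 and 1.15 on the spike-in scale. The calls of Tsc22d3, Hdac3 and Hdac5 ended without naive replicate 2 (adjusted p = 0.204, 0.0525 and 0.0615). The calls of Tsc22d3, Hdac3, Hdac5 and Hdac1 ended without smoke replicate 1 (adjusted p = 0.198, 0.0827, 0.113 and 0.0667). The call of Tsc22d3 ended without smoke replicate 2 (adjusted p = 0.0871). Under normexp the call of Hdac3 ended (0.38, adjusted p = 0.181). The difference on the other probe measured for Hdac4 was -0.16. Hdac2 did not pass the filter on dim probes. Over the 6 lists of cell state 32 of 196 genes rose and 38 fell, and 8 rose and 7 fell without smoke replicate 1. These counts became 39 and 18 under quantile normalization, 40 and 16 under cyclic loess and 26 and 84 under normexp background correction.

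Of 85 cytosolic ribosomal protein genes 5 rose and 33 fell, a balance that other scalings turned (13 and 3 under quantile normalization, 15 and 3 under cyclic loess, 0 and 11 without smoke replicate 1). Rpl38 stood at 7.54 and 7.94 in naive lung and at 5.12 and 5.43 in smoke, a fall of 2.46 (adjusted p = 0.0022), and Rpsa fell by 2.27 (adjusted p = 0.00221), turning to 0.48 and 0.67 on the spike-in scale. Rpl27 stood at -0.58 and -0.48 in naive lung and at 1.98 and 1.63 in smoke and rose by 2.34 (adjusted p = 0.00858), a call lost without smoke replicate 1 (adjusted p = 0.0648). Rplp0, a stalk protein of the large subunit, fell by 1.26 and turned to 0.58 under quantile normalization, 0.18 under cyclic loess and 1.68 on the spike-in scale. The call of Rplp0 ended without smoke replicate 1 (adjusted p = 0.0633). On other probes the difference of Rpl38 lay between -2.49 and -0.89, and that of Rpsa was -0.89.

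Of 74 respiratory chain subunit genes 20 rose and 13 fell (4 and 2 without smoke replicate 1): 10 rose and 4 fell of 32 in complex I, and 5 rose and 5 fell of 15 in ATP synthase. Atp5f1c, the gamma subunit of ATP synthase, stood at -2.89 and -2.24 in naive lung and at 0.85 and -0.21 in smoke (2.89, SE 0.41, adjusted p = 0.00262), and Ndufs8 of complex I rose by 2.72 (adjusted p = 0.0044). Uqcr11 of complex III fell by 1.96 (adjusted p = 0.00422) and Ndufa10 of complex I by 2.62 (adjusted p = 0.00684), turning to 0.98 and 0.33 on the spike-in scale. The other probe of Uqcr11 stood at -1.01.

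Of 42 proteasome genes 17 rose and 6 fell (7 and 0 without smoke replicate 1), among them 7 of 16 rises in the 20S core that cuts proteins and 7 of 19 in the 19S cap that unfolds them. Psmb1 stood at -2.65 and -2.42 in naive lung and at 0.52 and -0.40 in smoke (2.59, SE 0.37, adjusted p = 0.00263), and Psmb2, Psmb7 and Psmd3 rose by 2.70, 2.33 and 2.54 (adjusted p from 0.00308 to 0.00364). Psmc1 of the cap fell by 1.5 (adjusted p = 0.00844), turning to 1.44 on the spike-in scale, and none of the 6 falls was stable. The call of Psmc1 ended without smoke replicate 1 (adjusted p = 0.0658), and its other probe stood at -0.23. Of 71 spliceosome genes 11 rose and 20 fell (15 and 12 under cyclic loess). Prpf8, the core scaffold of the spliceosome, rose by 3.13 (adjusted p = 0.00265), and the splicing regulators Srsf2 and Hnrnpu fell by 1.82 and 2.01 (adjusted p = 0.00324 and 0.00308), turning to 1.12 and 0.93 on the spike-in scale, with the other probe of Srsf2 at -3.07.

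Of 44 lysosome and autophagy genes 11 rose and 13 fell (13 and 3 under quantile normalization, 14 and 1 under cyclic loess). The lysosomal membrane gene Lamp1 stood at -0.47 and -0.45 in naive lung and at 2.04 and 1.45 in smoke (2.21, SE 0.31, adjusted p = 0.00259), and the autophagy conjugation gene Atg3 rose by 2.23 (adjusted p = 0.00292). The autophagy receptors Optn and Sqstm1 fell by 1.60 and 1.18 (adjusted p = 0.00685 and 0.0198), turning to 1.34 and 1.76 on the spike-in scale, and no fall of this list was stable. The call of Sqstm1 ended without naive replicate 2 (adjusted p = 0.0934). The calls of Optn and Sqstm1 ended without smoke replicate 1 (adjusted p = 0.0578 and 0.104). The call of Sqstm1 ended without smoke replicate 2 (adjusted p = 0.0703). Differences on other probes lay between -1.05 and 1.69 for Optn and for Sqstm1 between -0.14 and 1.31. Of 45 lipid genes 8 rose and 12 fell (11 and 5 under quantile normalization, 11 and 3 under cyclic loess), with Fads1, a fatty acid desaturase, up by 2.97 (adjusted p = 0.00221), and the cholesterol synthesis gene Mvd and the cholesterol exporter Abca1 down by 1.90 and 1.75 (adjusted p = 0.00244 and 0.00595), turning to 1.04 and 1.2 on the spike-in scale. Of 31 glycolysis and hypoxia genes 7 rose and 9 fell (8 and 3 under quantile normalization, 9 and 2 under cyclic loess). Tpi1 and Hk1 of glycolysis rose by 2.69 (adjusted p = 0.00254) and 2.00 (adjusted p = 0.00388; 0.26 and adjusted p = 0.430 under normexp), and Hk2 and the hypoxia factor Epas1 fell by 1.94 and 2.56 (adjusted p = 0.00265 and 0.00404), turning to 1.00 and 0.38 on the spike-in scale. Of 392 genes of core machinery 79 rose and 106 fell, and 24 rose and 20 fell without smoke replicate 1. Under quantile normalization 97 rose and 34 fell, under cyclic loess 116 and 23, and under normexp background correction 74 and 143. Genes often used as references did not pass on the percentile scale with 1 probe per gene. Gapdh stood at 0.87 (adjusted p = 0.0975), with other probes from 0.83 to 2.73, and Actb at 0.65 (adjusted p = 0.205). Hprt1 stood at -0.29 (adjusted p = 0.368) and Ppia at -0.39 (adjusted p = 0.246). These 2 turned to 2.65 and 2.55 on the spike-in scale, to 0.16 and 0.77 under quantile normalization and to 0.28 and 0.79 under cyclic loess. Gapdh and Actb were called higher under quantile normalization (1.42 and 1.34), cyclic loess (1.48 and 1.58) and normexp (0.98 and 0.79). So was Ppia under quantile normalization and cyclic loess (adjusted p = 0.0393 and 0.0388). With the probes of a gene averaged, Gapdh (1.91) and Hprt1 (0.97) were called higher.

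The 6 genes with a symbol that rose most among those well above background on all 4 arrays included Pltp, a phospholipid transfer protein that also acts on surfactant (3.68, SE 0.42, adjusted p = 0.0022), Mfge8, which bridges dying cells to phagocytes (3.70, SE 0.56, adjusted p = 0.00304), and Cdc42ep1 (3.51, SE 0.36, adjusted p = 0.0022). Mfge8 stood at -2.05 and -2.26 in naive lung and at 1.81 and 1.28 in smoke. Among the falls that also lay below naive on the spike-in scale, Arid3a, a DNA-binding regulator of B cells, stood at 5.48 and 4.95 in naive lung and at -1.05 and 0.59 in smoke (-5.45, adjusted p = 0.0022, and -2.50 on the spike-in scale). Ephb2, an ephrin receptor, stood at -1.53 and -1.16 in naive lung and at -6.80 and -6.09 in smoke (-5.10, adjusted p = 0.0022, and -2.16 on the spike-in scale). Pgm5, a muscle adhesion protein, differed by -5.41 (adjusted p = 0.0022) and by -2.46 on the spike-in scale, but its other probe stood at 0.06, so the fall belongs to 1 of its 2 probes.

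Of 262 measured genes typical of other tissues 1 rose and 148 fell, 117 of the falls being among 184 sensory receptor genes. These counts became 5 and 65 under quantile normalization, 4 and 81 under cyclic loess and 0 and 241 under normexp background correction. In the skeletal muscle and testis lists 4 falls also lay below naive on the spike-in scale. Of these, Ckm, Pvalb and Prm2 did not pass the test there (adjusted p from 0.149 to 0.758). Ckm, muscle creatine kinase, stood at -1.22 and -1.11 in naive lung and at -4.99 and -4.53 in smoke, a difference of -3.60 (adjusted p = 0.0022) and -0.66 on the spike-in scale. Pvalb, a calcium buffer of fast muscle, differed by -3.14 (adjusted p = 0.0105) and by -0.20 on the spike-in scale, a call lost without naive replicate 2 (adjusted p = 0.0579) or smoke replicate 1 (adjusted p = 0.0633). Cyct, the testis cytochrome c, stood at -1.91 and -1.67 in naive lung and at -9.02 and -6.93 in smoke, with 1 of 2 smoke arrays well above background. It differed by -6.18 (adjusted p = 0.0022) and by -3.24 on the spike-in scale, where it passed the test (adjusted p = 0.000126). Prm2, a sperm protamine, differed by -3.76 (adjusted p = 0.0022) and by -0.82 on the spike-in scale. In the liver list 0 of 14 rose and 7 fell by limma with both naive arrays (0 rose and 9 fell at an unadjusted p under 0.05). Without naive replicate 2 the 4 falls were those of Cyp4a2, Amy1, Apoh and Apoc3 (other probe of the last, -4.59), and the list median moved from -3.88 to -1.59. Amy1, an amylase, was not well above background in smoke and fell by 3.83 (adjusted p = 0.00294), a floored fold of 7.03. Without naive replicate 2 its difference was -2.96. The antiprotease Serpina1 stood at -4.22 and 0.67 in naive lung and at -1.49 and -3.20 in smoke, a difference of -0.58 (adjusted p = 0.746) that became 1.87 without naive replicate 2, 0.28 without smoke replicate 2 and 2.37 on the spike-in scale.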

How the data were processed

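RNA of 8 rat lung samples was measured on 1-colour arrays of 1 slide. The intensity of each spot was deposited by the authors as scanner output of Agilent Feature Extraction 10.7.3.1 (array design 074036), per the file headers; its processed signal was used. The flags for spots well above background are also as deposited, per the file headers. Of 45598 probes, 28752 were kept, being well above background on both arrays of the naive or the smoke group. Levels were log2 intensity minus the log2 of the 75th percentile over non-control spots. RefSeq named 21215 probes, and 24383 had no match. Where a gene had several kept probes (2651 symbols), the brightest over the 4 arrays was used, and for genes described by their values other probes are quoted where they differed in sign or by over 1.5-fold.

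Smoke was compared with naive in 1 limma 3.58.1 fit (R 4.3.3) over the 4 groups, with Benjamini-Hochberg adjustment over all features. The fit was tested on simulated data. The alternatives were spike-in scaling, median centring, quantile normalization, cyclic loess, normexp (offset 50, median spot signal), no filter, a stricter filter on dim probes (well above background on all 4 arrays), averaging probes, a fit to the 4 arrays alone, a trended prior, a replicate block and each array left out. The gene lists and members were chosen with earlier results of these data known. Genes were named by a rule (per list, the called genes of smallest p that do not overlap between groups, those of the same sign on both scales first; the 6 highest and 6 lowest; and fixed genes), and further examples were chosen after their values were seen.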

Additional observations from a re-analysis of the deposited data

How the results depend on the processing

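Of 140 genes named by rule 120 passed the test and 93 of these kept their direction in every setting run. The call counts depended on scaling: 20776 features passed with spike-in scaling (20663 higher, 113 lower) and 17641 under normexp background correction (1985 higher, 15656 lower). Quantile normalization gave 4618 lower, cyclic loess 4697 higher and 4762 lower, and the test without the filter on dim probes 13770 lower. The other settings that kept all arrays left each count within 1.5 times, while leaving out naive replicate 2 or smoke replicate 1 did not. Leaving out 1 array gave 3786 to 8860 features in all, 928 to 2505 higher and 2858 to 6355 lower. Counts per list and theme without naive replicate 2 were chosen after seeing the data. With the replicate number as a block 10820 features passed (3026 higher, 7794 lower). Deviations of same-numbered naive and smoke samples correlated at 0.0322, and those of all pairs of groups from -0.163 to 0.157. With 2 samples a group this cannot decide whether the numbers pair the samples.

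Directions turned as follows, in log2 differences, and the cause was not tested. With spike-in scaling they turned for Acta2 (1.97), Ager (2.31), B2m (2.06), Col1a1 (1.74), Col2a1 (1.21), Col3a1 (2.83), Col9a2 (0.39), Cyp1b1 (1.88), Eln (2.79), Foxj1 (1.00), Foxn1 (1.58), Gja5 (1.58), Hmox1 (2.89), Hprt1 (2.65), Krt5 (1.15), Map2 (0.52), Marco (2.12), Matn1 (0.66), Pecam1 (0.87), Ppia (2.55), Retn (0.85), Rsph1 (0.95), Rtkn2 (1.64), Serpina1 (2.37), Sftpb (1.81), Sftpd (1.30), Sod2 (2.03), Sox10 (1.37), Spag16 (1.30), Sprr1a (0.87) and Vegfa (1.12), as the constant shift requires. Under quantile normalization they turned for Ager (1.08), B2m (0.32), Col3a1 (0.46), Eln (0.43), Hmox1 (0.16), Hprt1 (0.16), Ppia (0.77), Sftpb (0.61) and Sftpd (0.027). Under cyclic loess they turned for Ager (0.72), B2m (0.39), Col3a1 (0.64), Eln (0.64), Hmox1 (0.31), Hprt1 (0.28), Ppia (0.79) and Sftpb (0.23). Under normexp they turned for Ahrr (-1.44), Blnk (-0.71), Col3a1 (0.050), Csf2 (-0.33), Csf3r (-0.034), Gata3 (-0.92), Mmp9 (-1.55), Slc4a1 (-0.23), Spp1 (-0.62) and Tyms (-1.12). Median centring turned Col3a1 (0.11), Eln (0.063) and Hmox1 (0.16), and averaging the probes of a gene turned Ahr (-0.10), Gja5 (0.052), Hprt1 (0.97) and Ppia (0.65). Leaving out 1 array turned Ahr (from -0.050 to 0.60), Cdkn1a (from -0.31 to 0.66), Eln (from -0.45 to 0.14), Hmox1 (from -0.36 to 0.25), Serpina1 (from -3.02 to 1.87) and Spp1 (from -0.64 to 0.67).

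With 2 samples a group, a permutation test of a single value cannot go below p = 0.333, and the calls rest on a spread pooled over 8 arrays. How background alters the difference of a dim probe was not tested, and the number of arrays limits precision.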
